A study of Mus musculus with 3 samples.

Results

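Collagens are the helical proteins of the extracellular matrix, and their RNA was followed here across 3 mouse embryonic stem (ES) cell samples. The set was chosen by name, not by a measured value: every gene whose name in the deposited tables reads Col, a number, a and a number. Of 44 such names in the GENCODE vM21 annotation, 41 stood alone in at least 1 table and 40 stood alone in all 3, out of 25350 genes listed that way. FPKM, a read level normalised to transcript length and library size, was above 0 in at least 1 sample for 36 of the 40. Col4a3, Col9a3, Col10a1 and Col19a1 were listed at 0 in every sample. Col3a1, Col7a1 and Col20a1 were listed only in loci that carry several gene names, and Col26a1 was in such a locus in WT alone, so these 4 are described apart.

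The study asked what Pcgf1, the subunit that defines the noncanonical polycomb complex PRC1.1, does in ES cells of the C57BL/6 strain. RNA-seq was made from wild-type cells (WT), from Pcgf1-/- cells, in which Cas9 was guided to exons 2 and 3 of Pcgf1 and a line was grown from a single colony, and from Pcgf1-/-+Pcgf1 cells, which are Pcgf1-/- cells carrying a lentivirus for FLAG-tagged Pcgf1 and selected with puromycin. The cultures grew on mouse embryonic fibroblast feeders inactivated with mitomycin-C, and the sources used here do not say whether feeders were removed before RNA extraction. Each group had 1 sample, so no value has a replicate error, no test was possible, and every difference is between 3 cultures rather than between conditions.

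Collagen chains wind around each other into a helix, and each type is built from its own chains. Fibrillar collagens such as types 1, 3 and 5 form the ropes of connective tissue and are made in large amounts by fibroblasts. Type 4 collagen forms the sheet of basement membranes, the first matrix that the early embryo makes. The remaining types decorate fibrils, anchor membranes, span the cell membrane or, as in type 18, carry a C-terminal fragment known as endostatin.

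Over the whole series, the 3 tables held 155552 to 156379 rows, and read depth was not given. An approximate step for the evidence behind low values was taken from 2005 long genes with 1 annotated transcript. Of these, 71 (WT), 71 (Pcgf1-/-) and 88 (Pcgf1-/-+Pcgf1) lay above 0 and below a set bound of 0.07 FPKM times kilobases. Their medians, 0.0484 to 0.0517, gave the step. Steps of a collagen were counted with its longest coding transcript, which need not be the transcript behind its value. Pcgf1 itself had 13.95 FPKM in WT against 5.88 in Pcgf1-/- cells and 7.86 after the transgene. This value checks the label only in part, because transcripts without exons 2 and 3 and transcripts of the transgene both count towards it. The 12 ES cell markers that could be measured were all at 1 FPKM or more in WT, with Pou5f1 at 670, 518 and 626 FPKM in WT, Pcgf1-/- and Pcgf1-/-+Pcgf1, the order in which values are given below. Utf1 was at 600.2, 678 and 464 FPKM and Klf2 at 517, 590.2 and 357. Dppa3 (38.3, 17.5 and 60.1 FPKM, log2 ratio -1.13 to WT) was the 1 of the 12 called lower in Pcgf1-/-, with 0 called higher. Over all 14060 genes above 0, 8.98% were called lower and 3.89% higher, so the share of markers called lower was near that of all genes. A gene was called different past 2-fold in the ratio of FPKM plus 0.1, a scale that understates the difference of low genes. The 5875 genes that exceeded 5 FPKM in all 3 samples had median log2 ratios of -0.06 for Pcgf1-/- to WT, -0.05 for Pcgf1-/-+Pcgf1 to Pcgf1-/- and -0.12 for Pcgf1-/-+Pcgf1 to WT.

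Sequences at the starts of 5 genes are shown because their RNA carries the results that follow, with Col4a1 and Col4a2 as the pair higher in Pcgf1-/-, Col1a2 and Col6a1 as genes lower there, and Col18a1 as the collagen with the highest FPKM. PRC1.1 is known to reach chromatin through Kdm2b, a protein that binds unmethylated CpG, so capitals mark each CpG. The sequences come from RefSeq on the GRCm38.p6 build, and each was limited to bases outside the exons of GENCODE vM21, apart from the short stretch for type 4, which is exon sequence shared by both genes. Col4a1 (chr8:11198423-11312826, minus strand) and Col4a2 (chr8:11312805-11449287, plus strand) lie head to head, and their first exons share the 22 bases chr8:11312805-11312826, read here on the plus strand with 4 CpG. The Col1a2 stretch is chr6:4505370-4505492 on the plus strand, the Col6a1 stretch is chr10:76726169-76726294 on the minus strand and the Col18a1 stretch is chr10:77166549-77166780 on the minus strand.
Col4a1 and Col4a2 shared exon bases: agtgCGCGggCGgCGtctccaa
Col1a2: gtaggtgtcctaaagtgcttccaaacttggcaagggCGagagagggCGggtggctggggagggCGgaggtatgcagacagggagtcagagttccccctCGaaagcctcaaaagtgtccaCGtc
Col6a1: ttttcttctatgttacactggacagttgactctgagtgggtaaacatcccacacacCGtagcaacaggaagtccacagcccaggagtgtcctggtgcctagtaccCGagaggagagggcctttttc
Col18a1: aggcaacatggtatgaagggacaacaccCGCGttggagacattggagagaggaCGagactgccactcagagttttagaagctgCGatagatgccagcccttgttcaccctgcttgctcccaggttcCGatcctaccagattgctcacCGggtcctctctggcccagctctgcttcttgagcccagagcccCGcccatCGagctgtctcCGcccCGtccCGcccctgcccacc

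In the 250 bases before the RefSeq start, the promoters differed in CpG content. The letters CG, which read the same on both strands, occurred at least once in 92.1% of all 32851 RefSeq promoter windows and in 89.5% of the 38 windows that matched 35 collagen genes. The median was 6 CpG over all windows and 9.5 over collagen windows. Col4a1 held 31 CpG and Col4a2 held 26, and the counted bases of each gene lie inside the other gene. Col27a1, the other collagen called higher in Pcgf1-/-, held 15. Of the genes called lower, Col1a2 held 11, Col9a2 held 9 and Col6a1 held 3. For these genes the counted bases run into the first exon used here, while those of Col4a1 and Col4a2 end before it. The stretches shown above, outside exons, hold 5 CpG for Col1a2 and 2 for Col6a1. The counts of the higher and lower genes are therefore not like for like. The distal Col18a1 window held 12 CpG and its internal window held 3. Col5a1, with 28 CpG, did not pass the limit in any comparison. These counts describe the windows only, and no binding was measured.

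Most collagens were listed at low levels in these ES cells. FPKM of at least 1 was reached by 10, 9 and 11 of the 40, which is 25%, 22.5% and 27.5%, against 36.3%, 35.3% and 36.9% of all 25350 genes. The tables gave a value of 0 to 6 collagens in WT, to 10 in Pcgf1-/- cells and to 4 with the transgene. Summed FPKM over the set was 120, 141 and 93.9, of which Col18a1 alone gave 68.6%, 63.2% and 64.8%. The 20 members above 0 that neither reached 1 FPKM nor passed the limit in a comparison lay between 0 and 0.947 FPKM, the highest of them being Col5a2.

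**Figure D1:**
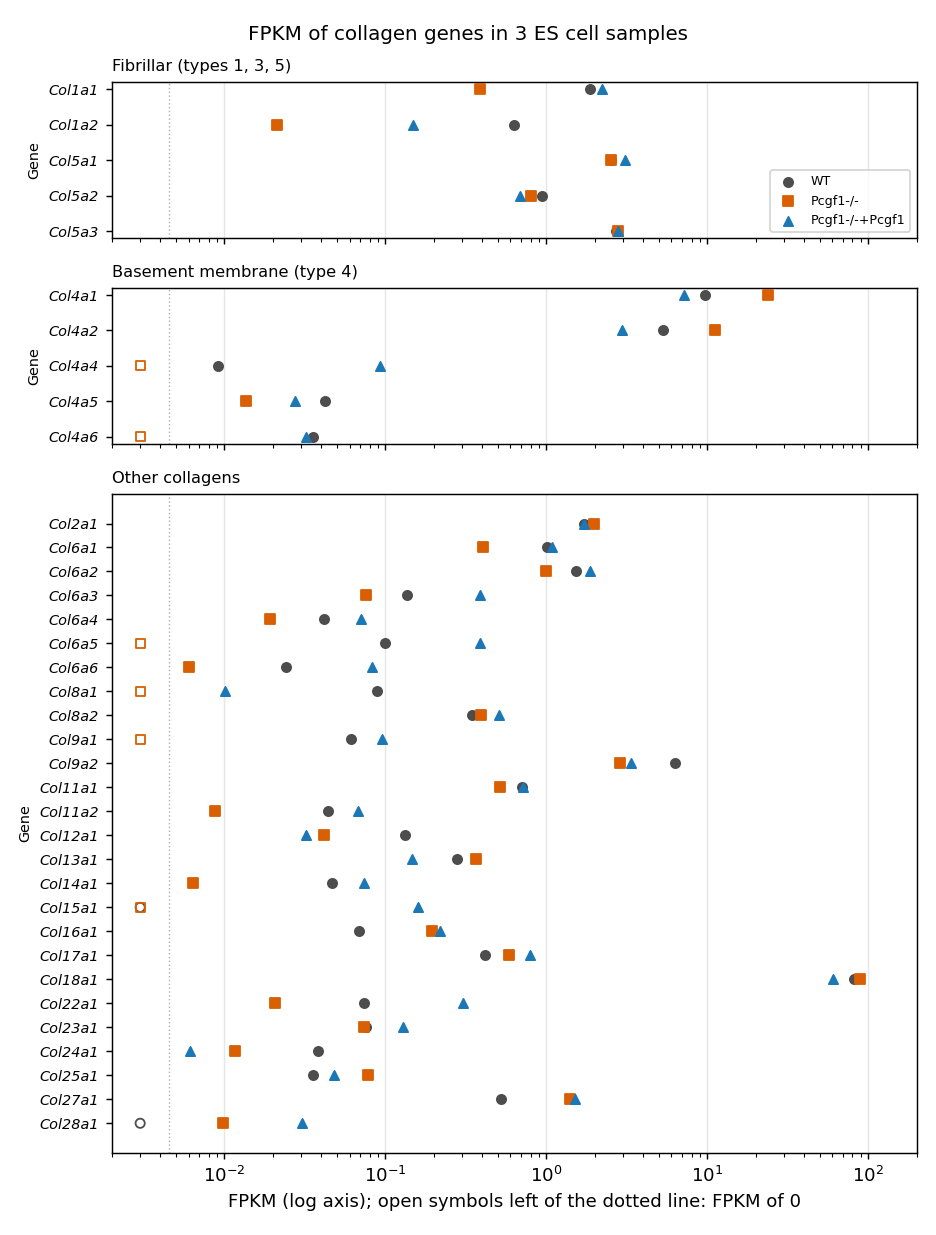
FPKM on a log axis of the 36 collagen genes above 0 in at least 1 sample, grouped as fibrillar, basement membrane and other collagens, with 1 symbol per sample and open symbols for a value of 0. Col18a1 stands far to the right at 60.9 to 89.2 FPKM, Col4a1 and Col4a2 are the only type 4 genes above 1 FPKM, and the Pcgf1-/- squares of Col1a1 and Col1a2 lie to the left of the other samples.

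Between Pcgf1-/- and WT, 4 of 36 collagens were called lower (11.1%), against 8.98% of all 14060 genes above 0. These were Col1a1, Col1a2, Col6a1 and Col9a2. Col4a1, Col4a2 and Col27a1, 3 of 36 (8.33%), were called higher, against 3.89% of all genes. The share called lower was near that of all genes, and the share called higher rested on 3 genes of which 2 share a promoter region. The median log2 ratio was -0.24 over the collagens and -0.09 over all genes, with 22 collagens below 0 and 13 above. Of all 14060 genes, 8288 were below 0 and 5134 above, so more genes lay below 0 there as well. Among the 11 collagens with at least 1 FPKM in 1 of these 2 samples, 3 were called lower and 3 higher, against 6.11% and 2.98% of the 9438 genes that met the same minimum.

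Type 4 collagen was higher in the Pcgf1-/- sample than in both other samples, and its 2 most abundant chains carried that difference. Col4a1, the α1 chain that every basement membrane contains, was at 9.74, 24.02 and 7.15 FPKM. Col4a2, its constant partner in the same helix, was at 5.36, 11.2 and 2.95 FPKM. For both genes, Pcgf1-/- was the highest and Pcgf1-/-+Pcgf1 the lowest sample. Relative to WT, Pcgf1-/- had log2 ratios of 1.29 for Col4a1 and 1.05 for Col4a2. Pcgf1-/-+Pcgf1 relative to Pcgf1-/- gave -1.74 and -1.88. Against WT, Pcgf1-/-+Pcgf1 stayed within 2-fold, with log2 ratios of -0.44 and -0.84. The values rest on about 1248, 3281 and 949 steps for Col4a1 and about 669, 1487 and 382 for Col4a2. For each gene the same value was listed at 1 first exon and 1 last exon, so the equal sums are not a second reading.

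The 2 chains kept a similar proportion. The ratio of Col4a1 to Col4a2 FPKM came to 1.82, 2.15 and 2.42 over the 3 samples, while the level of each moved by more than 2-fold. The other type 4 chains, which occur in kidney, lung and other specialised basement membranes, were at or near 0: Col4a3 at 0 throughout, and Col4a4, Col4a5 and Col4a6 at no more than 0.0925 FPKM. Summed type 4 FPKM was 15.2, 35.2 and 10.2, so Pcgf1-/- had 2.32 times the WT sum and Pcgf1-/-+Pcgf1 had 0.675 times that sum. In bulk RNA, fewer cells of a type and less RNA per cell cannot be told apart.

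Markers of primitive and parietal endoderm, the early embryo's main makers of type 4 collagen, were read beside these values. Of 16 such markers listed alone, none a collagen, 2 were called higher in Pcgf1-/- than in WT and 1 was called lower, against 3.89% and 8.98% of all genes, with a median log2 ratio of -0.16. Gata6, a transcription factor of primitive endoderm, was at 0.136, 0.410 and 0.129 FPKM, the same order of samples as Col4a1. Sox7, another factor of that lineage, was at 0.144, 0.414 and 0.648 FPKM, and Stra6, a retinol receptor, was at 0.621, 0.0860 and 0.810 FPKM. Summed over the list, FPKM was 162, 146 and 140, and none of the 16 was at 0 in all samples, although Foxa2 was listed at 0 in Pcgf1-/- and Pcgf1-/-+Pcgf1 and Hnf4a at 0 in WT and Pcgf1-/-. The laminin chains Lama1 (22.9, 13.8 and 15.4 FPKM), Lamb1 (34.7, 34.2 and 34.6 FPKM) and Lamc1 (68.7, 51.2 and 51.3 FPKM) and the linker Nid1 (22.7, 35.1 and 23.8 FPKM) share the basement membrane with type 4 collagen. All stayed within 2-fold. Each laminin chain was highest in WT, Lamb1 only slightly, and Nid1 was highest in Pcgf1-/-. The part of endoderm-like cells in the type 4 difference was not tested.

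**Figure D2:**
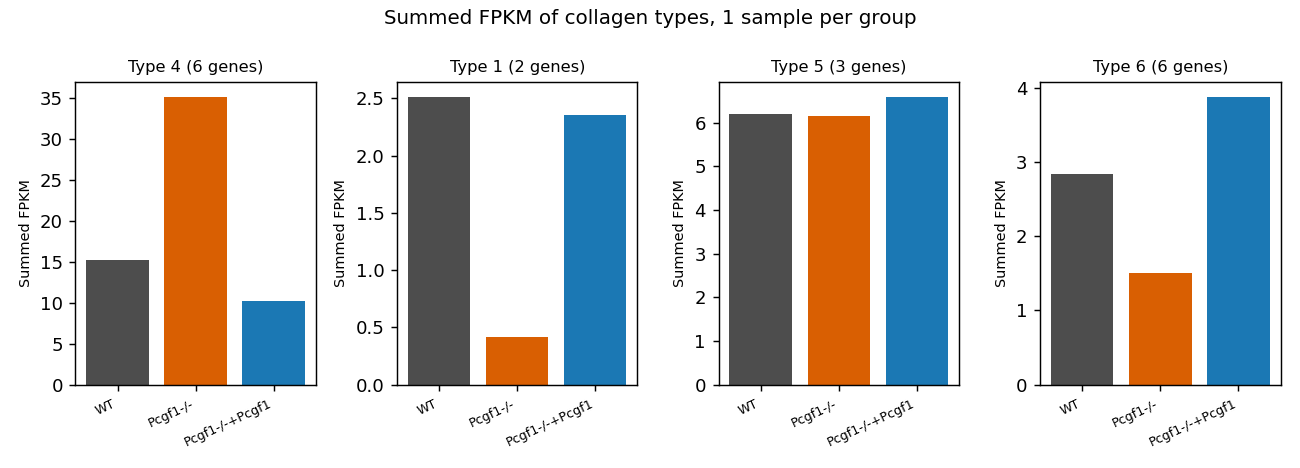
Summed FPKM, on linear axes from 0, of the genes of collagen types 4, 1, 5 and 6 in the WT, Pcgf1-/- and Pcgf1-/-+Pcgf1 samples, 1 bar per sample and therefore no error bar. The type 4 bar is highest in Pcgf1-/- (35.2 against 15.2 and 10.2), the type 1 and type 6 bars are lowest there, and the type 5 bars lie between 6.14 and 6.59.

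Among fibrillar collagens, both type 1 chains were lower in Pcgf1-/- than in WT while the type 5 chains were at similar levels. Col1a1 (chr11:94936224-94953042, plus strand), the α1 chain of the main collagen of skin and bone, was at 1.88, 0.390 and 2.21 FPKM. Pcgf1-/- was the low sample, and the other two lay close together. The log2 ratio was -2.01 for Pcgf1-/- to WT, 2.24 for Pcgf1-/-+Pcgf1 to Pcgf1-/- and 0.22 for Pcgf1-/-+Pcgf1 to WT. About 216, 47.8 and 263 steps lay behind these values.

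Col1a2 (chr6:4504814-4541544, plus strand), the partner chain in the type 1 helix, was at 0.635, 0.0213 and 0.148 FPKM. Here Pcgf1-/- was again lowest, but Pcgf1-/-+Pcgf1 remained below WT. The log2 ratios were -2.60, 1.03 and -1.57 in the same order of comparisons, with about 65.7, 2.35 and 15.9 steps. The ratio of Col1a1 to Col1a2 FPKM came to 2.96, 18.3 and 14.9, and the Pcgf1-/- ratio has only about 2.35 steps of Col1a2 beneath it. Of 3 first exons listed for Col1a2, 2 were above 0: the upstream one, chr6:4504814-4504865, was at 0.3195 FPKM in WT and listed at 0 in both other samples, and chr6:4505493-4505909, was at 0.315, 0.0213 and 0.148 FPKM. The sequence shown for Col1a2 ends directly before the second of these.

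Type 5 collagen, which sits inside type 1 fibrils and sets their diameter, stayed within 2-fold in all 3 comparisons. Col5a1 was at 2.54, 2.55 and 3.10 FPKM, Col5a2 at 0.947, 0.810 and 0.686, and Col5a3 at 2.71, 2.78 and 2.81. The samples are hardly separated for Col5a3. Summed over each type, type 1 was at 2.51, 0.412 and 2.36 FPKM and type 5 at 6.19, 6.14 and 6.59. The fibrillar class as a whole was at 8.71, 6.55 and 8.95 FPKM, 0.752 times WT in Pcgf1-/-.

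Col3a1, the type 3 chain that accompanies type 1 in soft tissue, was listed jointly with AC125167.1 and was read from its last exon (chr1:45348601-45349706). That exon was at 0.180, 0.0250 and 0.0349 FPKM, lowest in Pcgf1-/- and almost as low in Pcgf1-/-+Pcgf1. The log2 ratio to WT was -1.16 for Pcgf1-/- and -1.05 for Pcgf1-/-+Pcgf1. As the value may include reads of the other name, it was left out of the counts.

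Feeder fibroblasts make type 1 and type 3 collagen, so fibroblast markers other than collagens were read beside them. Of 21 such markers listed alone, 17 were above 0, and Postn, Fap, Dpt and Mgp were listed at 0 in every sample. In Pcgf1-/- against WT, 3 of the 17 were called lower and 0 higher, against 8.98% and 3.89% of all genes, with a median log2 ratio of -0.51 beside -0.09 over all genes. The 3 were Thy1, a surface protein also made by other cells (14.2, 6.39 and 13.5 FPKM), the growth factor receptor Pdgfrb (0.309, 0.0913 and 0.151) and the mesenchymal factor Snai2 (0.206, 0.0382 and 0.167). In Pcgf1-/-+Pcgf1 against Pcgf1-/-, 6 were called higher and 1, Twist1, lower, against 11.5% and 4% of all genes. Summed FPKM of the list was 191, 138 and 156, carried by Fn1 (110, 75.7 and 74.9), Vim (39.9, 31.9 and 29.3) and Cthrc1 (15.01, 11.8 and 18.8), and 8 of the 21 were at 1 FPKM or more in WT. Dcn (0.352, 0.779 and 1.18), Twist1 (2.09, 3.19 and 0.763) and Mfap5 (3.28, 4.38 and 9.38) had higher values in Pcgf1-/- than in WT, within 2-fold. Every other marker above 0 had a lower value in Pcgf1-/- than in WT. The part of fibroblasts in the type 1 difference was not tested.

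Among the fibrillar chains of other types, 1 gene was called. Col27a1, a cartilage collagen, was at 0.525, 1.40 and 1.52 FPKM, lowest in WT, with log2 ratios of 1.27 for Pcgf1-/- and 1.37 for Pcgf1-/-+Pcgf1 against WT. From its last exon alone the first of these was 0.84, within 2-fold. Its first exons differed between samples: chr4:63214004-63214404 was at 0.161, 0.515 and 0 FPKM, and chr4:63215412-63215881 at 0.179, 0.481 and 0.856 FPKM. Col2a1, the main collagen of cartilage, was at 1.72, 1.98 and 1.71 FPKM, within 2-fold. Its first exon chr15:98004409-98004657 was at 0.925, 1.98 and 0.596 FPKM, and first exons alone gave Pcgf1-/- to WT a log2 ratio of 1.02. Exon 2 of Col2a1 (chr15:98000403-98000606), which is included in early, non-cartilage transcripts, was recorded as included at the same 0.925, 1.98 and 0.596 FPKM. Col11a1, Col11a2 and Col24a1 stayed below 1 FPKM and within 2-fold.

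**Figure D3:**
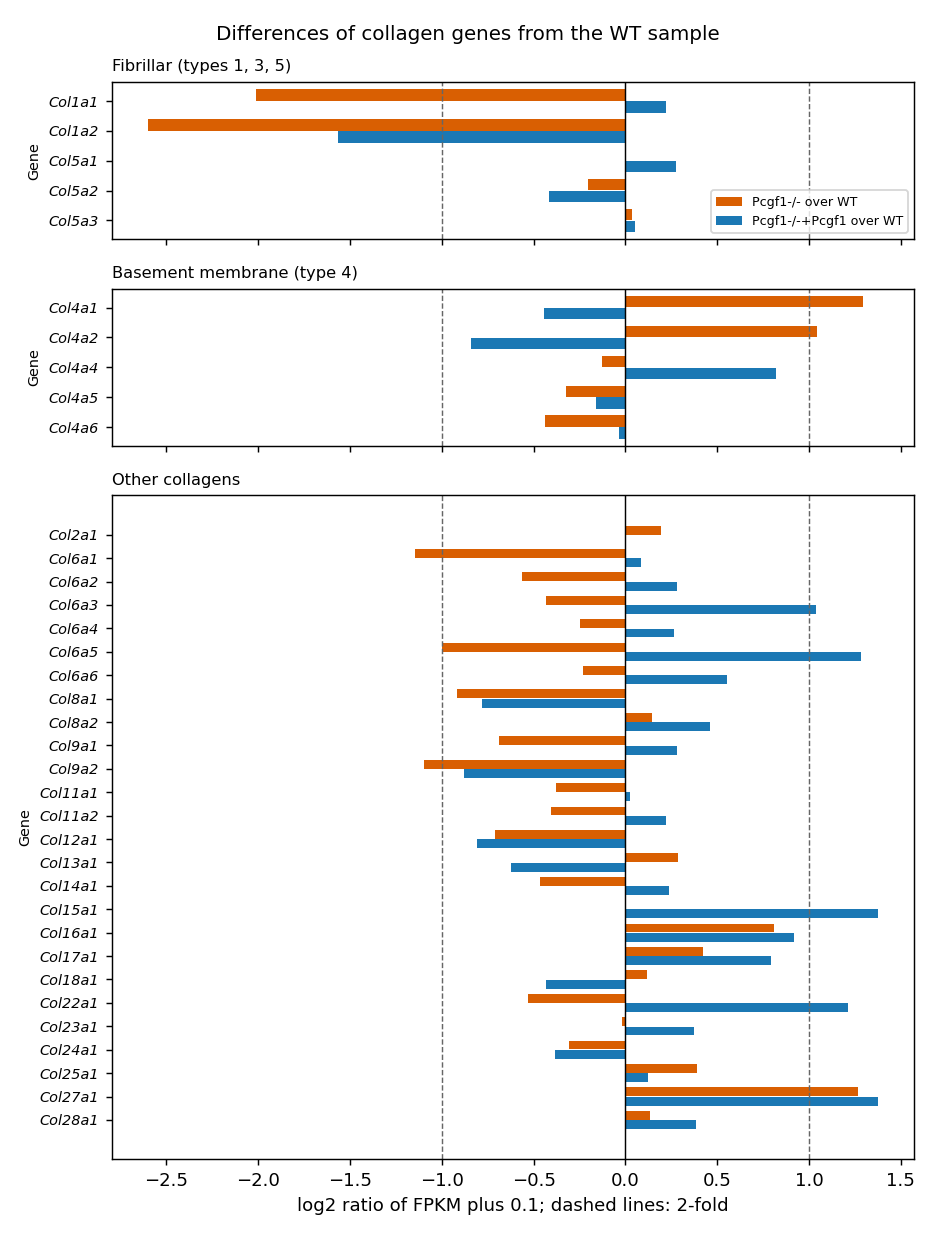
Horizontal bars give the log2 ratio of FPKM plus 0.1 to WT for Pcgf1-/- and Pcgf1-/-+Pcgf1, 1 pair of bars for each of the 36 collagen genes above 0, with dashed lines at 2-fold and a value of 0 where no bar is seen. Col1a1 and Col1a2 reach -2.01 and -2.60 in Pcgf1-/-, Col4a1, Col4a2 and Col27a1 pass the upper line there, and every type 6 gene is below 0 in Pcgf1-/- and above 0 in Pcgf1-/-+Pcgf1.

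Type 6 collagen, the beaded filament that ties cells to the surrounding matrix, gave the same order of samples for all of its 6 genes, with Pcgf1-/- lowest and Pcgf1-/-+Pcgf1 highest. Col6a1 (chr10:76708792-76726168, minus strand), the α1 chain, was at 1.02, 0.404 and 1.08 FPKM. The log2 ratio was -1.15 for Pcgf1-/- to WT and 1.23 for Pcgf1-/-+Pcgf1 to Pcgf1-/-. Col6a2, its partner, was at 1.53, 1.001 and 1.87 FPKM, within 2-fold throughout. Col6a3, the long α3 chain, was at 0.137, 0.0761 and 0.387 FPKM, with log2 ratios of -0.43, 1.47 and 1.04 over the 3 comparisons. Its Pcgf1-/- value lay wholly on the last exon chr1:90791467-90791977, which was at 0 in the other samples. The last exon chr1:90766860-90767605 was at 0.112, 0 and 0.387 FPKM, so unlike transcripts are compared.

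Col6a5, an alternative to the α3 chain, was at 0.0999, 0 and 0.387 FPKM. Its log2 ratio for Pcgf1-/- to WT was -0.999, just within 2-fold, and the pseudocount of 0.1 sets the size of a ratio at this level. By its own processing, the paper names Col6a5 and Col1a2 among its most downregulated genes. The first exon of Col6a5 was at 0.0999, 0 and 0.0818 FPKM, so most of its Pcgf1-/-+Pcgf1 value came from a last exon of 17 bases (chr9:105858668-105858684) that was at 0 in the other samples. Summed type 6 FPKM was 2.84, 1.51 and 3.88, so Pcgf1-/- had 0.529 times the WT sum. The median log2 ratio over the 6 genes was -0.50 for Pcgf1-/- to WT, 1.04 for Pcgf1-/-+Pcgf1 to Pcgf1-/- and 0.42 for Pcgf1-/-+Pcgf1 to WT. Only Col6a1 and Col6a2 reached 1 FPKM, and type 6 genes are also abundant in fibroblasts, whose markers are given above. Col6a4 had about 5.93, 2.91 and 10.4 steps and Col6a6 about 4.11, 1.09 and 14.5, so their order of samples rests on little evidence.

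Col18a1, which carries endostatin and belongs to basement membranes, was the most abundant collagen by FPKM in all samples, at 82.2, 89.2 and 60.9 FPKM. It ranked 743, 661 and 963 among the 25350 genes, and its log2 ratios of 0.12 (Pcgf1-/- to WT), -0.55 (Pcgf1-/-+Pcgf1 to Pcgf1-/-) and -0.43 (Pcgf1-/-+Pcgf1 to WT) stayed within 2-fold. The whole value lay on 1 of its 4 listed first exons, chr10:77166439-77166548, directly after the sequence shown above. First exons at the internal promoter, chr10:77112959-77113705 and chr10:77112218-77113676, were listed at 0 in every sample. Col15a1, the other collagen of this kind, was listed at 0 in WT and Pcgf1-/- and at 0.159 FPKM in Pcgf1-/-+Pcgf1, where it passed the limit.

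Collagens that decorate fibrils included the remaining call between Pcgf1-/- and WT. Col9a2 (chr4:121039385-121055322, plus strand), a chain of cartilage type 9 collagen, was at 6.30, 2.89 and 3.38 FPKM, with a log2 ratio of -1.10 for Pcgf1-/- to WT. This difference lay at the last exon, where all of these values were read. On first exons the samples were at 2.90, 2.89 and 3.38 FPKM and the log2 ratio was -0.01. Col22a1, found at tissue junctions, was at 0.0743, 0.0206 and 0.304 FPKM, and the last of these stood on a first exon alone, with 0 at the last exon.

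The transmembrane collagens Col13a1, Col17a1, Col23a1 and Col25a1 and the network collagens Col8a1 and Col8a2 all stayed below 1 FPKM and within 2-fold in each comparison. Without Col18a1, the class of other collagens summed to 13.8, 10.1 and 13.8 FPKM, and with it to 95.95, 99.2 and 74.7.

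Of the joined loci beyond Col3a1, Col7a1, the anchoring fibril collagen of skin, was listed with Mir711. Its last exon (chr9:108984502-108984875) was at 1.67, 0.447 and 0.905 FPKM, lowest in Pcgf1-/-, with a log2 ratio of -1.69 to WT. At the first exon chr9:108953586-108953636 the samples were at 0.464, 0.447 and 0.325 FPKM, so this difference was not seen at that exon. Other first exons were above 0 in WT and Pcgf1-/-+Pcgf1 but not in Pcgf1-/-. In WT these were chr9:108978470-108978667 at 1.20 FPKM and chr9:108969693-108969739 at 0.311 FPKM. In Pcgf1-/-+Pcgf1 they were chr9:108978564-108978650 at 0.829 FPKM, which lies inside the WT exon at 1.20 FPKM, and chr9:108974319-108974456 at 0.580 FPKM. Col26a1 had a last exon (chr5:136741759-136743206) at 2.00, 1.36 and 2.70 FPKM, the first of these in a locus shared with Gm20485. The Col20a1 locus, shared with 9230112E08Rik, was at 0 in WT and Pcgf1-/- and had a first exon at 0.180 FPKM in Pcgf1-/-+Pcgf1.

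The comparisons with Pcgf1-/-+Pcgf1 ask what returns with the transgene, but each shares a sample with the comparison above, so their values stand side by side only. Between Pcgf1-/-+Pcgf1 and Pcgf1-/-, 2 of 36 collagens were called lower (5.56%), against 4% of all genes, and these were Col4a1 and Col4a2. Col1a1, Col1a2, Col6a1, Col6a3, Col6a5, Col15a1 and Col22a1, 7 of 36 (19.4%), were called higher, against 11.5% of all genes. Of the 7, Col1a1 and Col6a1 reached 1 FPKM. The median log2 ratio was 0.34 over the collagens and 0.04 over all genes. Between Pcgf1-/-+Pcgf1 and WT, Col1a2 was called lower (1 of 36, 2.78%, against 4.25% of all genes), and Col6a3, Col6a5, Col15a1, Col22a1 and Col27a1 were called higher (5 of 36, 13.9%, against 7.19%). Only Col27a1 among these reached 1 FPKM.

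Taking the 3 samples together, Pcgf1-/- had the lowest value in 19 of the 36 collagens (52.8%), against 39.6% of all genes, and the highest in 6 (16.7%), against 26.6%. Of the collagens above 0 in Pcgf1-/- or WT, 24 were below 1 FPKM in both. Among those 24, Col1a2 alone was called between these samples. Over all 14060 genes, 8.98% were called lower there, against 6.11% of the 9438 with at least 1 FPKM in either sample. The share called lower among the remaining genes was therefore above 8.98%, but it is not given here. The pseudocount understates differences at such levels, so this count is not read as a result about collagens.

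Genes that fold, modify and export collagen gave no call between Pcgf1-/- and WT. Of 38 genes listed for this role, 33 were listed alone and 24 of these were at 1 FPKM or more in WT. In that comparison 0 of the 33 were called lower or higher, against 8.98% and 3.89% of all genes, with a median log2 ratio of 0.14. Of genes with at least 1 FPKM in 1 of these 2 samples, 6.11% were called lower and 2.98% higher. Above 5 FPKM in all 3 samples the shares were 1.17% and 1.04%, so few calls would be found at such levels. P4hb, the shared subunit of prolyl 4-hydroxylase, was at 238, 239 and 208 FPKM, Ppib, a prolyl isomerase, at 230, 168 and 135, and Sparc, a secreted collagen binder, at 227, 266 and 254. In Pcgf1-/-+Pcgf1 against Pcgf1-/-, 3 were called lower and 0 higher, against 4% and 11.5% of all genes. They were Bmp1, which cuts the C-terminal end off procollagen (3.85, 6.19 and 2.37 FPKM), its enhancer Pcolce2 (16.9, 22.5 and 8.42 FPKM) and the isomerase Fkbp14, listed at 2.03, 1.62 and 0 FPKM.

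Collagen receptors and collagen-cutting enzymes gave 1 call in each direction between Pcgf1-/- and WT among the 10 genes above 0, against 8.98% of all genes lower and 3.89% higher, with 4 others of the list (Gp6, Mmp8, Mmp13 and Ctsk) at 0 in every sample. Mrc2, which takes up collagen fragments into cells, was at 2.15, 4.68 and 1.54 FPKM, highest in Pcgf1-/- as Col4a1 was, with a log2 ratio of 1.09 to WT. Mmp2, an enzyme that cuts type 4 and denatured collagen, was at 14.9, 7.12 and 9.54 FPKM, lowest in Pcgf1-/-, with a log2 ratio of -1.06. The highest values of the list belonged to Itgb1, the shared β1 chain of collagen-binding integrins (50.1, 75.9 and 40.8 FPKM), Ddr1, a collagen-activated kinase (24.97, 23.6 and 20.9), and Mmp14, a membrane-bound collagenase (13.5, 25.1 and 7.98), all within 2-fold between Pcgf1-/- and WT. In Pcgf1-/-+Pcgf1 against Pcgf1-/-, Mrc2 and Mmp14 were called lower, with log2 ratios of -1.54 and -1.64, and 0 genes higher, against 4% and 11.5% of all genes.

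**Figure D4:**
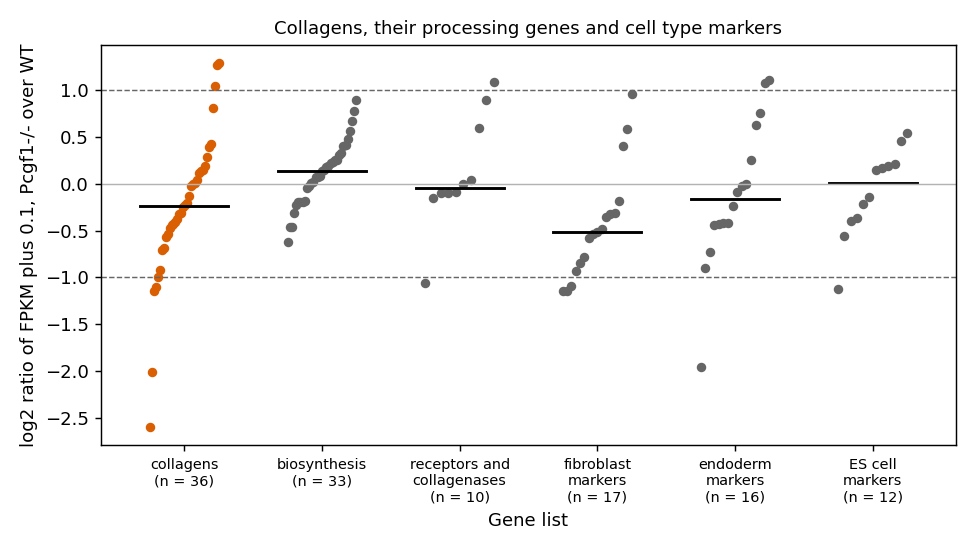
Each point is 1 gene above 0, placed by its log2 ratio of FPKM plus 0.1 of Pcgf1-/- to WT, for the collagens and 5 lists, with a black line at each list's median and dashed lines at 2-fold. The 36 collagens spread from -2.60 to 1.29, the 33 biosynthesis genes all lie between the dashed lines, and the fibroblast markers have the lowest median, -0.51.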

How the data were processed

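RNA-seq of 3 ES cell cultures, 1 per group, was read from the authors' deposited lists of splicing and transcript-end events, whose FPKM values per event were used as given. The submitters' processing notes name TopHat2 2.0.12, Cufflinks 2.2.1, HTSeq 0.6.0 and the mm10 build, and the study's methods name RPKM and DEGseq. How each tool made the FPKM is not given in the sources used here. A gene's value was the larger of its summed first-exon and summed last-exon FPKM, over names listed alone in all 3 tables. Ratios used a pseudocount of 0.1 FPKM and a limit of 2-fold, without a test. The script that makes the 2-fold calls was tested on simulated data. Exons were matched to GENCODE vM21.

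Members and lists were chosen with earlier results of these data known. Members with FPKM of at least 1 in any sample or past 2-fold in any comparison (16 genes) were named with all values. From other lists, genes past 2-fold in Pcgf1-/- against WT or with the 3 highest FPKM were named. Genes named outside this rule were chosen after their values were seen. Python 3.11.15, numpy 2.4.6, pandas 2.3.3 and matplotlib 3.10.9 were used.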

Additional observations from a re-analysis of the deposited data

How the results depend on the processing

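Pseudocounts of 0.01 and 1 FPKM, a minimum of 1 FPKM, first exons only, last exons only and median-of-ratios scaling were tried. Collagens called lower in Pcgf1-/- against WT numbered 15 with a pseudocount of 0.01 and 1 with a pseudocount of 1, where 1 was called higher. For Pcgf1-/-+Pcgf1 against Pcgf1-/-, those called higher numbered 16 with a pseudocount of 0.01, 1 with a pseudocount of 1 and 2 with the minimum. For Pcgf1-/-+Pcgf1 against WT, 4 were lower and 9 higher with 0.01, 0 and 0 with 1, and 0 and 1 with the minimum. These pseudocounts and the minimum act on low genes by construction. Shares over all genes are not given for these pseudocounts, so the counts are not read as a result about collagens. The minimum left 11 collagens. Of all genes that met it, 7.23% were called higher for Pcgf1-/-+Pcgf1 to Pcgf1-/-. For Pcgf1-/-+Pcgf1 to WT, 2.65% were called lower and 3.84% higher. On first exons alone, Col6a5 turned to -0.14 (log2, Pcgf1-/-+Pcgf1 to WT) and was 0.86, within 2-fold, against Pcgf1-/-. On last exons alone, Col22a1 turned to -0.27 against Pcgf1-/- and -0.80 against WT. Col9a2 in Pcgf1-/- against WT was -0.99 after scaling. With a pseudocount of 0.01, Col1a2 was -4.36, Col6a5 -3.46 and Col22a1 -1.46 in that comparison. With a pseudocount of 1, Col4a2 was 0.94, Col27a1 0.66, Col9a2 -0.91, Col1a2 -0.68 and Col6a1 -0.52 in that comparison. Class sums kept their direction and side of 2-fold with first exons, last exons or scaling. For the type 4 and fibrillar sums, nearly the same values were listed at first and last exons, so those 2 settings could hardly change them. In alternatives chosen after seeing the data, other collagens without Col18a1 turned, within 2-fold, to -0.45 (Pcgf1-/- to WT), 0.46 (Pcgf1-/-+Pcgf1 to Pcgf1-/-) and 0.0049 (Pcgf1-/-+Pcgf1 to WT), and the fibrillar sum with the last exon of Col3a1 kept its direction, at -0.43 (Pcgf1-/- to WT). No paired analysis was possible because each group had 1 sample. The data limit every statement to 3 cultures of unknown read depth.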

Other observations

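Fkbp14, a folding enzyme for collagen, was listed at 2.03, 1.62 and 0 FPKM over the WT, Pcgf1-/- and Pcgf1-/-+Pcgf1 samples in that order, while Serpinh1, the collagen chaperone, was at 50.5, 56.2 and 56.8 FPKM and Mia3, which helps load procollagen for export, at 11.5, 21.4 and 18.9 FPKM. A value of exactly 0 beside values of this size can be an estimate that was not made, and it is given as listed. All of these genes were chosen after their values were seen.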
